A study of Mus musculus with 4 samples.

Results

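Cluster 5 of the authors' graph-based clustering, within the class they named CD8 T cells, held 2501 of the 17211 cells of the series. Of these, 2488 came from the IL-12 library and 13 from the control library. The cells were live CD45+ leukocytes sorted from mouse mammary tumours into which a control plasmid or an IL-12 plasmid had been delivered by injection and electroporation. Each library pooled the cells of 3 mice for its treatment, and the strain and the time after treatment are not stated in the labels. The labels describe the tumour in more than one way: the growth protocol has spontaneous tumours after mammary HER2 was switched on in young mice, a month after birth, the design text has triple-negative tumours, and the deposited sample names carry the name of the transplantable 4T1 line. With 1 library per treatment there is no replicate, so the values below are descriptions without a test. The 95% intervals, exact Poisson for levels and Clopper-Pearson for shares, cover counting error only.

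CD8 T cells recognise peptides on MHC class I through a receptor made of an alpha and a beta chain. The rearranged junction of each chain, the CDR3, is passed on to daughter cells, so cells with the same pair of CDR3s are taken as a clone. Effector cells store perforin and granzymes in cytotoxic granules, secrete interferon-gamma and chemokines, and under lasting stimulation carry inhibitory receptors such as PD-1. IL-12 is a cytokine of myeloid cells that signals through STAT4 and is known to raise interferon-gamma in T and NK cells. Cluster 5 is described here against cluster 8, a CD8-class cluster with 62 cells in the IL-12 library and 572 in the control library, and cluster 9, which the authors classed as CD4 T cells, with 996 and 175 cells.

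The 2488 members made up 76.2% of the CD8-class cells of the IL-12 library (interval 74.7 to 77.7) and 19.2% of all its cells. The 13 control members made up 2.0% of that library's CD8 class (1.07 to 3.40). A further 8 cells of cluster 5 in the control library carried other class names and were not members. Median depth was 6117.5 unique molecular identifiers (UMIs, counted molecules) per cell in the IL-12 members, 4201.5 in IL-12 cluster 8, 2581.0 in IL-12 cluster 9, 10358 in the control members and 5556.0 in control cluster 8. The libraries shared 87 cell barcodes, 11 of them among the IL-12 members.

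The marker genes are described here for the IL-12 members as a whole. The clusters were drawn from these same genes, so the shares are no separate support for the label. Cd8a, one chain of the CD8 co-receptor, had a UMI in 90.7% of cells and Cd8b1, the other chain, in 90.3%. With every cell thinned to 1000 UMIs, the Cd8a share was 58.0% in cluster 5, 53.2% in cluster 8 and 33.0% in cluster 9 of the IL-12 library. In neutrophils of the same library, which should lack the gene, it was 2.13% after thinning and 4.94% before, at a median depth of 2553.0 UMIs. Nkg7, a granule protein of killer cells, was found in 98.6% of members and Pdcd1, which encodes PD-1, in 89.2%. In GRCm38 Cd8a lies at chr6:71373427-71379173, beside Cd8b1 at chr6:71322788-71337494, and all 7 markers are protein-coding genes. Gzmb, which encodes granzyme B, was found in 72.7%, Ifng in 45.4% and Gzmf, a granzyme of strongly stimulated cells, in 15.8%.

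Pooled over cells, Nkg7 stood at 4003 CPM (UMIs of the gene per 1000000 UMIs of the group) in IL-12 cluster 5, 2353 in cluster 8 and 2157 in cluster 9. In the control library Nkg7 stood at 1953, 2005 and 1335 in clusters 5, 8 and 9. Nkg7 was thus highest in the IL-12 members. Cd8b1 showed the same order of the leading group, at 1045 against 544 and 529 in the IL-12 library and 545, 476 and 228 in the control library. Ifng was 326 CPM in the IL-12 members, 186 and 180.2 in IL-12 clusters 8 and 9, and 63.2, 92.8 and 47.3 in the control groups. All 3 IL-12 groups were above all 3 control groups for Ifng. In cells without neutrophil or macrophage UMIs, 410 in IL-12 cluster 5 and 13 in IL-12 cluster 8, the Ifng order of these clusters turned, to a log2 ratio of -0.72 from 0.80. Gzmb did not follow this order: it was 1559 in the IL-12 members and 1961 in the 13 control members, whose intervals are plotted beside the other markers. Gzmf was highest in IL-12 cluster 8, at 1099 CPM, against 415 in cluster 5. The log2 ratio of Gzmf between these clusters went from -1.40 to -0.82 when cells were thinned and to -0.07 in cells with a recorded clone, 20 of them in cluster 8. Pdcd1 stood at 804 in the IL-12 members, 722 and 480.2 in IL-12 clusters 8 and 9, and 529.7, 616 and 436 in the control groups.

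**Figure D1:**
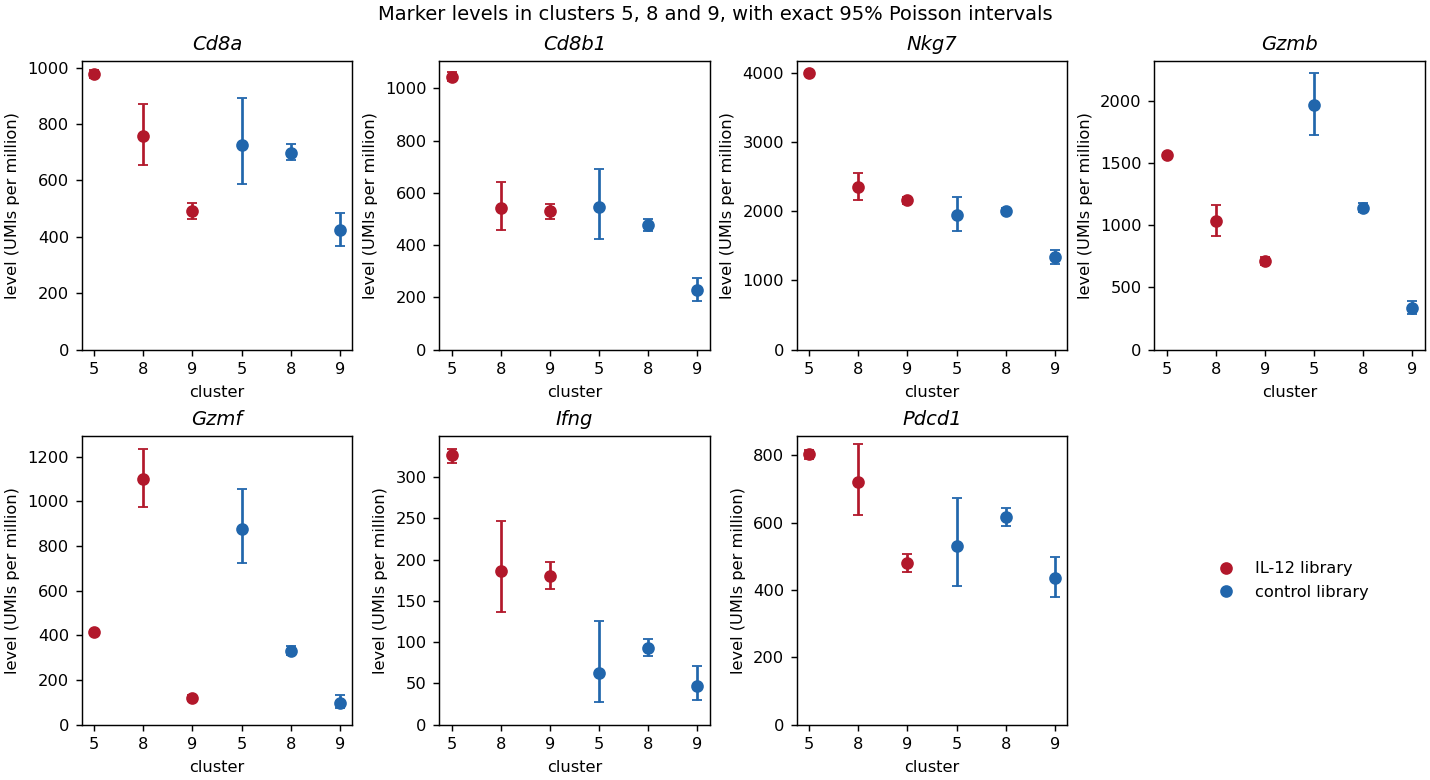
Levels of the 7 marker genes (vertical axes, CPM) in clusters 5, 8 and 9 (horizontal axes) of the IL-12 library (red) and the control library (blue). Points are pooled levels and bars exact 95% Poisson intervals. Nkg7 reached 4003 CPM in IL-12 cluster 5, above the other 5 groups, while Gzmf was highest in IL-12 cluster 8 at 1099.

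The products of the cluster were unevenly spread over its cells. The 124 cells with most UMIs of a gene, 5% of the members, held 13.4% of the Nkg7 UMIs and 16% of those of Pdcd1. For Gzmb the same number of cells held 41.1%, for Ifng 60.8%, for Gzmf 86.0% and for Gzma, which encodes the tryptase granzyme A, 96.5%. Gzma had a UMI in 9.97% of members, and up to 380 UMIs in 1 cell. Poisson intervals treat UMIs as independent, so for such genes they are narrower than the spread between cells.

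The receptor data showed that the IL-12 members came from few clones. A clone was recorded for 2239 of the 2488 cells, in 341 clones, and 256 of these clones had 1 cell in the cluster. The 4 largest clones held 1403 cells, 62.7% of those with a clone. Clone 1 had 514 cells (23%, interval 21.2 to 24.8), clone 2 had 489, clone 3 had 207 and clone 4 had 193. The inverse Simpson index, the number of equally large clones that would give the same chance of drawing a pair from one clone, was 8.36 in cluster 5. It was 11.6 in IL-12 cluster 12, also of the CD8 class, over 548 cells, and 40.0 in IL-12 cluster 9, over 537 cells. In the control library it was 17.7 in cluster 8, over 397 cells, and 10.7 in cluster 9, over 32 cells. The largest clone held 19.2% (15.9 to 22.7) in IL-12 cluster 12 and 20.4% (16.5 to 24.7) in control cluster 8. In IL-12 cluster 8 only 20 of 62 cells had a clone. All 11 control members with a clone had a different one. Outside the T cell classes, 0.152% of the neutrophils, 10.2% of the macrophages and 1.13% of the B cells of the IL-12 library also had a recorded clone.

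**Figure D2:**
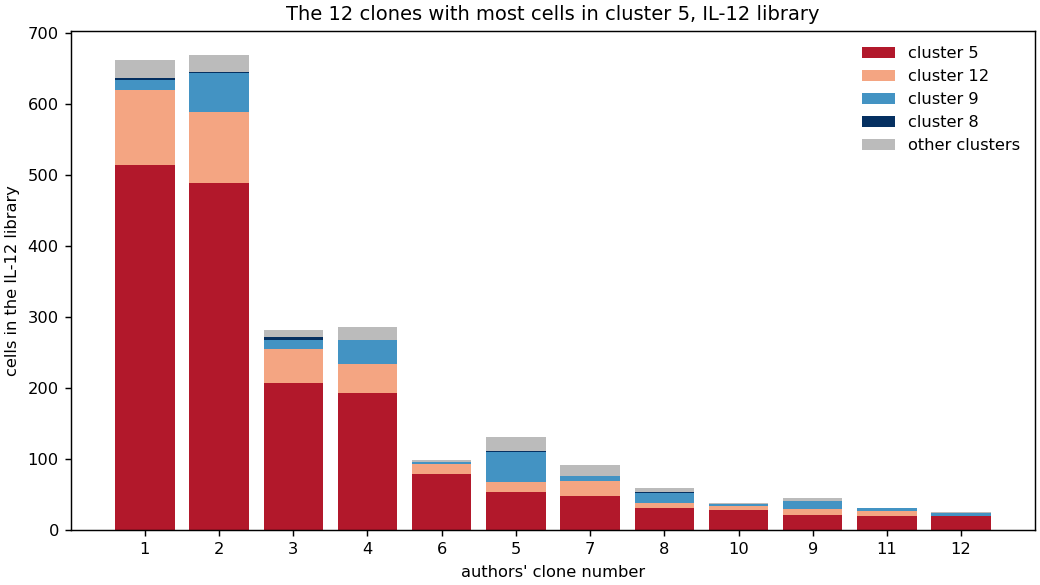
Cells of the 12 clones with most cells in cluster 5 of the IL-12 library. The horizontal axis gives the authors' clone number and the vertical axis the number of cells, stacked by cluster. Clone 1 has 514 cells in cluster 5 and 105 in cluster 12, and clone 5, for which no alpha chain was recorded, has 42 of its cells in cluster 9.

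Some of the authors' clone numbers held 1 recorded chain that a larger clone also had, and their partner chain was not recorded. Clones 7 and 8 carried only the alpha and only the beta chain of clone 1, clone 5 only the beta chain of clone 2, and clone 9 only the beta chain of clone 4. Counted by beta CDR3, that of clone 2 was in 648 of the 2157 members with a beta chain (30.0%), that of clone 1 in 559, that of clone 3 in 316 and that of clone 4 in 223. Together these 4 beta chains were in 1650 cells, 76.5% (74.6 to 78.3). Clones 2 and 3 had the same alpha CDR3 of 15 residues, and that chain alone was in 815 members. Their beta CDR3s, 16 residues each, differed by 2 substitutions, T7L and A10S, written from clone 2 to clone 3 with position 1 at the first residue of the CDR3. The beta chain of clone 2 accompanied the shared alpha chain in 501 cells and that of clone 3 in 225. Both beta chains were recorded in 79 cells, which the authors number as clone 6 and which had a median of 7237.0 UMIs, against 5529.0 and 6056.0 in the cells with 1 of them.

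The segments that could encode these junctions were looked up in the GENCODE M21 annotation of GRCm38, since the tables used here name no segments. They are shown because they show what the dominant receptors are built from: clones 2 and 3 match the same Trbv31, Trbj2-3 and Traj24, and clones 1 and 4 match other segments. Capitals mark the codons that translate to the start (V segments) or the end (J segments) of the CDR3. The V segments are shown from 9 bases before the match to the end of the annotated segment, and the J segments from their annotated start to 9 bases after the match.
Trbv31, clones 2 and 3, beta: ttctacctcTGTGCCTGGAGTctca
Trbj2-3, clones 2 and 3, beta (match in clone 3): AGTGCAGAAACGCTGTATTTTggctcagga
Traj24, clones 2 and 3, alpha: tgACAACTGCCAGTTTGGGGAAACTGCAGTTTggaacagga
Traj15, clone 1, alpha: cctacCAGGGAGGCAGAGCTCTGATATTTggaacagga
Trbj1-4, clone 1, beta: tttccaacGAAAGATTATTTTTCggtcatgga
Trbv1, clone 4, beta: accttgtacTGCACCTGCAGTGCAga
Trbj1-5, clone 4, beta: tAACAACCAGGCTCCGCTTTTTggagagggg
Traj11, clone 4, alpha: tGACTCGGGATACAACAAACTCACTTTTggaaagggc

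Each of these was the single annotated segment with the longest match. The match is on translated residues, so it does not prove which segment was used. Trbv31 lies on the minus strand at chr6:41557691-41557715 and matched 4 residues, and Trbj2-3 lies at chr6:41543223-41543252 and matched 6 residues of clone 2 and 7 of clone 3. Traj24 at chr14:54195638-54195678 matched 10 of the 15 alpha residues of both clones. Trbv1 at chr6:40891860-40891885 matched 5 residues of clone 4. The beta V segment of clone 1 could not be told from its 4 matching residues, which 16 annotated segments share, nor the alpha V segment of clones 2 and 3, where 19 match. For clone 1, Traj15 at chr14:54204422-54204459 and Trbj1-4 at chr6:41534811-41534842 matched 8 and 5 residues. For clone 4, Trbj1-5 at chr6:41535084-41535114 and Traj11 at chr14:54207139-54207175 matched 7 and 9. These J segments and Trbv1 lie on the plus strand.

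Receptors with the CDR3 lengths of clones 2 and 3 and few substitutions from them were present in the control library. Among 102 control clones with 1 alpha and 1 beta chain, 3 had both CDR3 lengths of clone 2. The nearest of these, control clone 3 with 15 cells, 14 of them in cluster 8, differed from clone 2 by R5G in the alpha CDR3 and by P5L, G6D and A10G in the beta CDR3. Control clone 8, with 7 cells, all in cluster 8, differed by S4R and R5Q in the alpha and by G6D, T7W and A10G in the beta CDR3. The nearest control pair to clone 1 had 8 substitutions over both chains and the nearest to clone 4 had 16. These control clones were looked for after the dominant receptors were known. In clone 2 the V and J matches cover 4 and 10 of the 15 alpha residues and 4 and 6 of the 16 beta residues. Receptors of the same segments and lengths are therefore alike at most positions. How near unrelated receptors of these segments come was not tested. Of the 259 paired receptors in the IL-12 members, 2 also occurred with identical CDR3s in the control library.

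Cells of 1 clone were spread over several clusters. Clone 1 had 77.6% of its 662 cells in cluster 5, 105 cells in cluster 12, 15 in cluster 9 and 2 in cluster 8. Clone 4 had 67.5% of its 286 cells in cluster 5 and 34 in cluster 9. Cluster 5 shared 51 clones with IL-12 cluster 9, which is 15% of the clones of cluster 5 and 16.6% of those of cluster 9. By cells the overlap was larger: 81.9% of the cluster 5 cells with a clone (80.2 to 83.4) and 49.9% of those of cluster 9 belonged to shared clones. With cluster 12 there were 59 shared clones, holding 83.6% of the cluster 5 cells and 79.9% of the cluster 12 cells. Cluster 12, also classed as CD8, had S100a8 of neutrophils in 97.0% of its cells, at 15810.2 CPM, against 134 in cluster 5. Cluster 8 shared 8 of its 14 clones, with 14 of its 20 cells.

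Split by clone, the IL-12 members were not uniform, and the label held best for expanded clones. Of the 1403 cells of the 4 largest clones, 1402 had a Cd8a or Cd8b1 UMI. So had 97.8% of the 580 cells of other clones with 2 or more cells in the cluster. Of the 256 cells that were the only one of their clone in the cluster, 70.3% had one (64.3 to 75.8), and 22.3% had a UMI of Cd4 or of Foxp3, the transcription factor of regulatory T cells, with none of Cd8a or Cd8b1. The clone of 25 of these 256 cells had other cells elsewhere in the library. Among the 249 cells without a clone, 63.1% had a Cd8a or Cd8b1 UMI and 24.1% had none of Cd3d, Cd3e and Cd3g, the signalling chains of the receptor. In that last group 20.9% had a UMI of Ncr1, which encodes the NK cell receptor NKp46, against 0 of 1403 cells in the 4 largest clones, a count that allows up to 0.263% (interval's upper bound). Median depth was 6061.0, 5813.5, 6455.5 and 6848.0 UMIs in the 4 groups in this order. Of the whole cluster, 182 cells, 7.32%, had neither CD8 chain.

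Effector genes were divided unequally among these groups. Gzma was 102 CPM in the 4 largest clones, 554 in the other clones of 2 or more cells, 1238 in clones of 1 cell and 4023 in cells without a clone. The 4 largest clones were thus 39.3-fold (36.8 to 42.1) below the cells without a clone. Within those cells Gzma stood at 586 CPM where a Cd8a or Cd8b1 UMI was present and at 9761 where none was. Lag3, an inhibitory receptor for MHC class II, went the other way: 816 CPM in the 4 largest clones, 705 in the other clones of 2 or more cells, 232 in clones of 1 cell and 449 in cells without a clone. Nkg7 stood at 4509.6, 4148, 1917 and 3197. Gzmb differed little by comparison, at 1458, 1757, 1577 and 1646 CPM. Ifng was 317, 369, 96.4 and 502, lowest in clones of 1 cell. The cells without a clone were mixed for these genes too. Ifng stood at 258 CPM in the 157 of them with a Cd8a or Cd8b1 UMI and at 909 in the 92 without. Lag3 stood at 662 and 92.5 in the same cells. Foxp3 was 83.2 CPM in clones of 1 cell and 0.428 in the 4 largest clones, from 4 UMIs. Klf2 and Ccr7, a transcription factor of resting T cells and the receptor that guides T cells to lymph nodes, were 5.59-fold (4.64 to 6.73) and 5.56-fold (4.65 to 6.66) lower in the 4 largest clones than in clones of 1 cell.

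**Figure D3:**
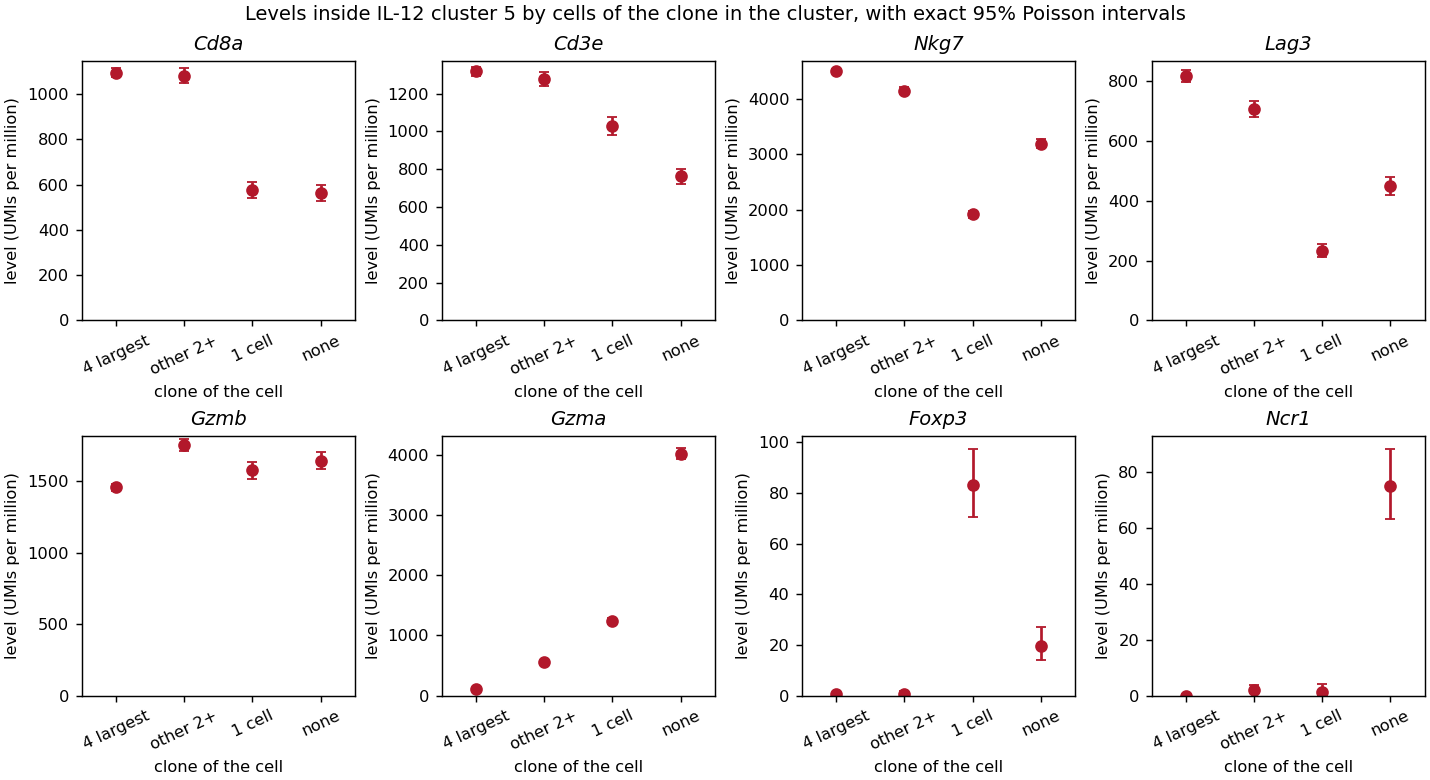
Levels of 8 genes inside cluster 5 of the IL-12 library (vertical axes, CPM) by the clone of the cell: the 4 largest clones, other clones of 2 or more cells in the cluster, clones of 1 cell in the cluster, and no recorded clone (horizontal axes). Bars are exact 95% Poisson intervals. Gzma goes from 102 in the 4 largest clones to 4023 in cells without a clone, and Lag3 from 816 to 449 with 232 between.

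The large clones also differed from each other. The library pooled 3 mice and the labels used here name no mouse for a cell. Differences between clones therefore cannot be told apart from differences between mice. Ifng stood at 254 CPM in clone 1, 491 in clone 2, 176 in clone 3 and 233 in clone 4. Clones 2 and 3, which share the alpha chain, thus lay at the high and the low end of these 4. The share of cells with an Ifng UMI differed less, at 49.8%, 55.8%, 44.4% and 51.8% in clones 1 to 4. Clone 5, with 53 cells and only the beta chain of clone 2 recorded, stood at 1281 CPM, with an Ifng UMI in 47.2% of its cells. Its cells may belong to clone 2. Whether clones 5 and 6 are separate from clones 2 and 3 was not tested. Ly6c2, a surface antigen of activated and memory CD8 cells, was 549 in clone 1, 198 in clone 2, 46.1 in clone 3 and 213 in clone 4. Clone 3 was led by Kit, the stem cell factor receptor, at 82.3 CPM against 13.5 in the rest of the cluster, 6.11-fold higher (4.8 to 7.74), with a UMI in 32.4% of its cells against 6.14%. Ppic and Acpp followed, at 5.70-fold (3.06 to 10.3) and 4.27-fold (3.33 to 5.44). Clone 1 was led by Podnl1, Arhgap20 and Calca. Calca, which encodes calcitonin gene-related peptide, stood at 157 CPM against 55.2 in the rest, 2.85-fold (2.56 to 3.18). Clone 4 was close to it for Calca, at 144 CPM (123 to 167), and both had a Calca UMI in 32.1% of cells. Clone 2 was led by Reep2, Exph5 and Ptch1, the Hedgehog receptor, the last at 36.6 against 11.1 CPM. Clone 4 was led by Wdsub1, Wwc1 and Klra3, an NK cell receptor gene of the Ly49 family, at 65.6 against 19.7. Clone 6, with the beta chains of clones 2 and 3, was led by Gzme (449 against 95.5 CPM), Tff1 and Mt3. Clone 5 was led by Ermn, Mt2 and Ccl12, of which Ermn had most, with 14 UMIs, in 5.66% of its cells. These genes were picked as the highest ratios, so the sizes are not independent of the choice.

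Against cluster 9 of the same library, cluster 5 had more of the cytotoxic granule and less of the resting-cell programme. Of 6139 genes measured (at least 50 UMIs over both groups and a UMI in 5% of cells of either), 77 were at least 2-fold higher in cluster 5, 1.25% of all, and 147 at least 2-fold lower, 2.39% of all. The clusters were themselves drawn from these genes. With every cell thinned to 1000 UMIs, 18 genes of 2237 measured were past the line upward and 63 downward. The median log2 ratio over all measured genes was -0.03. In the list of granule and death-ligand genes, 5 of 17 measured genes were at least 2-fold higher and 0 lower, with a median log2 ratio of 0.41. Gzmc stood at 133 CPM in cluster 5 and 22.9 in cluster 9, 5.80-fold higher (4.49 to 7.62), and Gzmf at 415 and 119.9, 3.46-fold (3.09 to 3.89). Gzmb was 2.19-fold higher (2.09 to 2.29), with a log2 ratio of 1.13 that was 0.99 when cells were thinned and 0.92 as a mean over cells, and Prf1, which encodes perforin, 2.09-fold (1.89 to 2.31). Cst7, an inhibitor of the proteases that process granzymes, was 2.12-fold higher (1.93 to 2.34). Gzma was lower in cluster 5, at 763 against 1119.6 CPM. Spp1, which encodes the secreted protein osteopontin, was 2.77-fold higher (2.61 to 2.95).

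In the naive and memory list, 6 of 11 measured genes were at least 2-fold lower in cluster 5 than in cluster 9 and 0 higher, with a median log2 ratio of -1.58. S1pr1, the receptor by which T cells leave tissue, stood at 7.48 against 70.2 CPM. Klf2 stood at 46.1 against 265, and Tcf7, which encodes the memory factor TCF-1, at 13.6 against 74.1. Lef1, Ccr7 and Bach2 were the other members past the line, 4.20-fold, 3.97-fold and 3.24-fold lower. Cxcr3, the receptor for interferon-induced chemokines, stood at 19.3 CPM in cluster 5 and 61.5 in cluster 9, while Cxcr6, a homing receptor of tissue CD8 cells, stood at 783 and 549. The lowest ratios of all were those of Tnfsf8, S1pr1, Rflnb, Ecm1, Il1rl1, Ramp3, Esm1, Klf2, Tbc1d4 and Klf3. The highest were those of Gzmc, Klra5, Cdk1, Gzmf, Afmid, Gng3, Cdkn2a, Epdr1, Pclaf and Rrm2, which include the cell-cycle genes Cdk1, Pclaf and Rrm2. Of the proliferation list 7 of 19 measured genes were higher and 0 lower. Of the IL-12, IL-18 and IL-2 receptor and signalling list, 4 of 15 were lower, against 2.39% of all genes: Il18rap, Jak2, Il2ra and Socs3. Of the inhibitory receptors 1 of 11 was past 2-fold: Klrg1, at 16.6 against 41.2 CPM.

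The same comparison was made within the 4 largest clones, which had 1403 cells in cluster 5 and 117 in cluster 9, with median depths of 6061.0 and 2826.0 UMIs. This leaves the cells of other clones out, but the mix of the 4 clones differed: clones 1 to 4 had 514, 489, 207 and 193 of the cells in cluster 5 and 15, 55, 13 and 34 in cluster 9. Of 6092 measured genes, 8.32% were at least 2-fold higher in cluster 5 and 3.46% at least 2-fold lower, with a median log2 ratio of 0.00. Of the granule genes 5 of 16 measured were at least 2-fold higher, Gzmb to Gzmf, and 0 lower. Gzmb stood at 1458 against 713 CPM, 2.05-fold (1.80 to 2.33). Taken clone by clone, a split added after these values were seen, Gzmb was 1.04-fold (0.828 to 1.33) in clone 1, 2.36-fold (1.91 to 2.94) in clone 2 and 1.42-fold (1.12 to 1.82) in clone 4, and clone 3 had 3 Gzmb UMIs in cluster 9. The pooled Gzmb value thus does not describe each clone, and for clone 1 the interval includes 1. Gzmc was 5.36-fold higher (2.45 to 14.7), from 6 UMIs in cluster 9, and Gzmf 3.57-fold (2.56 to 5.13). Gzmf had 0, 31, 0 and 4 UMIs in the cluster 9 cells of clones 1 to 4. It was 1.94-fold higher (1.36 to 2.88) in clone 2 and 8.79-fold (3.41 to 32.4) in clone 4, so its pooled value does not describe each clone. Pdcd1 stood at 882 and 874 CPM, a fold of 1.01 (0.898 to 1.14), and Ifng at 317 and 328, a fold of 0.966 (0.799 to 1.18). By clone, Ifng was 1.80-fold higher (1.33 to 2.49) in cluster 5 for clone 2 and 2.16-fold lower (1.56 to 2.93) for clone 4. The cluster 9 cells of these clones had 43 and 50 Ifng UMIs. In cluster 5 as a whole, 5% of cells held 60.8% of the Ifng UMIs, with up to 468 in 1 cell. The intervals leave out this spread between cells, so a difference between the clones is not established. In the naive and memory list 1 of 7 measured genes was lower, Bach2, from 8 UMIs in cluster 9, and 1 was higher, Myb. Klf2 stood at 24.0 and 32.8 CPM, 1.36-fold lower (0.672 to 2.49), against 5.74-fold over all cells. S1pr1 and Tcf7 had 0 UMIs in the 117 cluster 9 cells of these clones and 24 and 55 UMIs in cluster 5, at most 5.88 CPM. Ramp3, 6.05-fold lower over all cells, was at 33.2 and 29.8 CPM. Of the IL-12, IL-18 and IL-2 list 1 of 15 measured genes was lower within these clones, Socs3, and 0 were higher. Il2ra, lower over all cells, stood at 45.7 and 23.9 CPM, a fold of 1.92 (0.964 to 4.47). Ccl5, a chemokine of memory and effector T cells, was 1.98-fold lower (1.93 to 2.04) in cluster 5 over these clones, and 3.60-fold, 1.61-fold, 1.07-fold and 1.50-fold lower in clones 1 to 4. S100a8, a neutrophil gene, stood at 137 CPM in the cluster 5 cells and 388 in the cluster 9 cells, and its part in these differences was not tested.

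**Figure D4:**
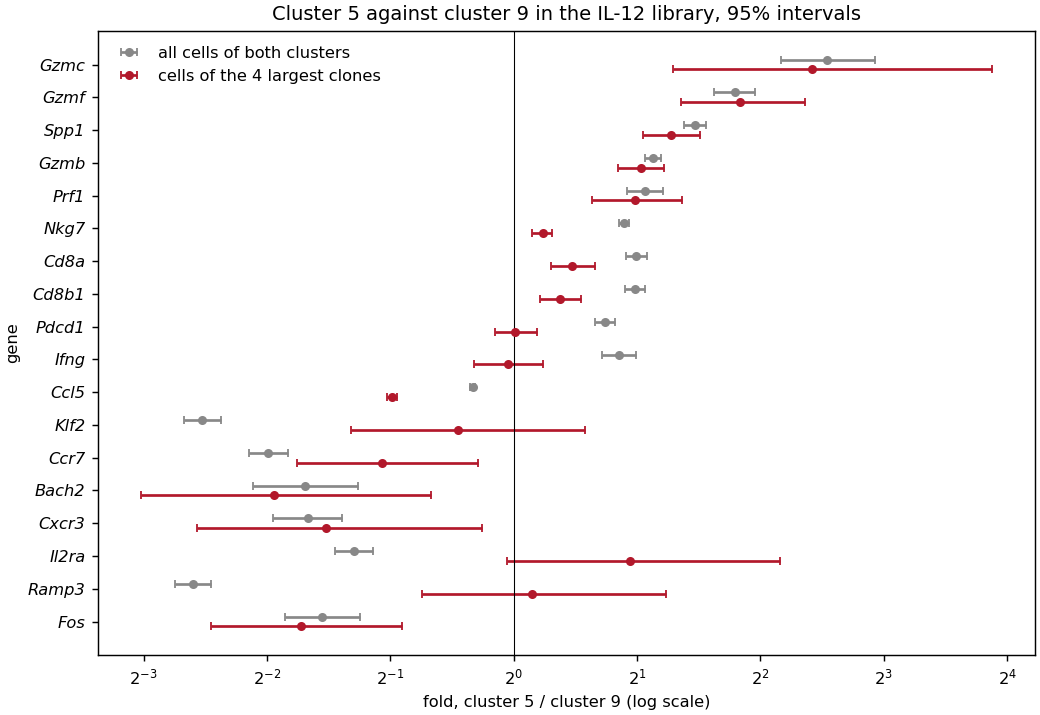
Fold of 18 genes between clusters 5 and 9 of the IL-12 library (horizontal axis, log scale; above 1 means higher in cluster 5), for all cells of both clusters (grey) and for the cells of the 4 largest clones (red), with exact 95% intervals. Gzmb is 2.19-fold and 2.05-fold higher, while Ramp3 and Klf2, low over all cells, have intervals that include 1 within the clones.

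Against cluster 8 of the IL-12 library the main difference was in cell-cycle genes, which were lower in cluster 5. Of 6469 measured genes, 557 were at least 2-fold higher in cluster 5, 8.61% of all, and 1159 at least 2-fold lower, 17.9% of all, around a median log2 ratio of -0.25. With every cell thinned to 1000 UMIs the counts were 274 and 732 of 2654 measured. In the proliferation list 18 of 22 measured genes were at least 2-fold lower and 0 higher, with a median log2 ratio of -1.57. Mki67, a marker of dividing cells, stood at 42.6 CPM in cluster 5 and 399.9 in cluster 8, 9.38-fold lower (7.56 to 11.5), and Top2a, a DNA topoisomerase of dividing cells, at 64.2 and 423. With all cells thinned to 1000 UMIs, 3 or more of the 23 proliferation genes were detected in 6.07% of cluster 5 (5.16 to 7.08), 37.1% of IL-12 cluster 8 (25.2 to 50.3) and 4.66% of IL-12 cluster 9. In the 572 cells of control cluster 8 the share was 5.94% (4.15 to 8.21). The high share was thus that of the 62 IL-12 cells, not of cluster 8 in both libraries. The histone genes H2ac15, Hist1h2an, H1f3 and H1f5 and the spindle gene Aspm were among the 10 lowest ratios, with Etfb, Fn1, Dab2 and Retnla. Among the 10 highest, Spsb3, Prkaca, Mmgt2, Hax1, Saysd1, Mkrn2, Stam2, Vamp5 and Lrwd1 had 0 UMIs in the 62 cells of cluster 8. Set against a floor of 3 counts in that group they were 1.41-fold to 2.18-fold higher, which is not a lower limit. The lower ends of their exact intervals ran from 1.14-fold (Lrwd1) to 1.77-fold (Spsb3). The size of the group thus limits what can be said of these genes.

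Other lists had smaller differences from cluster 8. Of the type I interferon response 3 of 16 measured genes were higher, Ifit3, Isg15 and Rtp4, and 0 lower, while against cluster 9 none of the 16 was past 2-fold in either direction. Among granule genes Gzmk and Cst7 were at least 2-fold higher and Gzmd, Gzmf and Gzmg at least 2-fold lower, of 18 measured, near the 8.61% and 17.9% of all genes. Gzmk, a granzyme of memory-type cells, stood at 108 against 46.6 CPM, 2.33-fold (1.33 to 4.51). Ccl5 was 3.55-fold higher (3.26 to 3.87), at 7264 against 2046, and Ltb, which encodes lymphotoxin beta, 2.26-fold higher (1.82 to 2.85). Tigit, an inhibitory receptor, was 2.56-fold higher (1.77 to 3.85). It was the 1 of 10 inhibitory receptors past 2-fold, near the 8.61% of all genes. Ikzf2, which encodes the factor Helios, was 2.74-fold lower (2.24 to 3.33). Of the IL-12, IL-18 and IL-2 list 3 of 15 measured genes were higher, Il12rb1, Il12rb2 and Socs1, and 2 lower, Il18rap and Tyk2. Of all genes 8.61% were higher and 17.9% lower. The list's median log2 ratio was -0.37, against -0.25 for all genes, so the list as a whole was not higher in cluster 5. Il12rb2, a subunit of the IL-12 receptor, stood at 15.2 CPM in cluster 5 and had 0 UMIs in cluster 8. It was 1.30-fold higher by the same floor of 3 counts, which is not a lower limit.

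**Figure D5:**
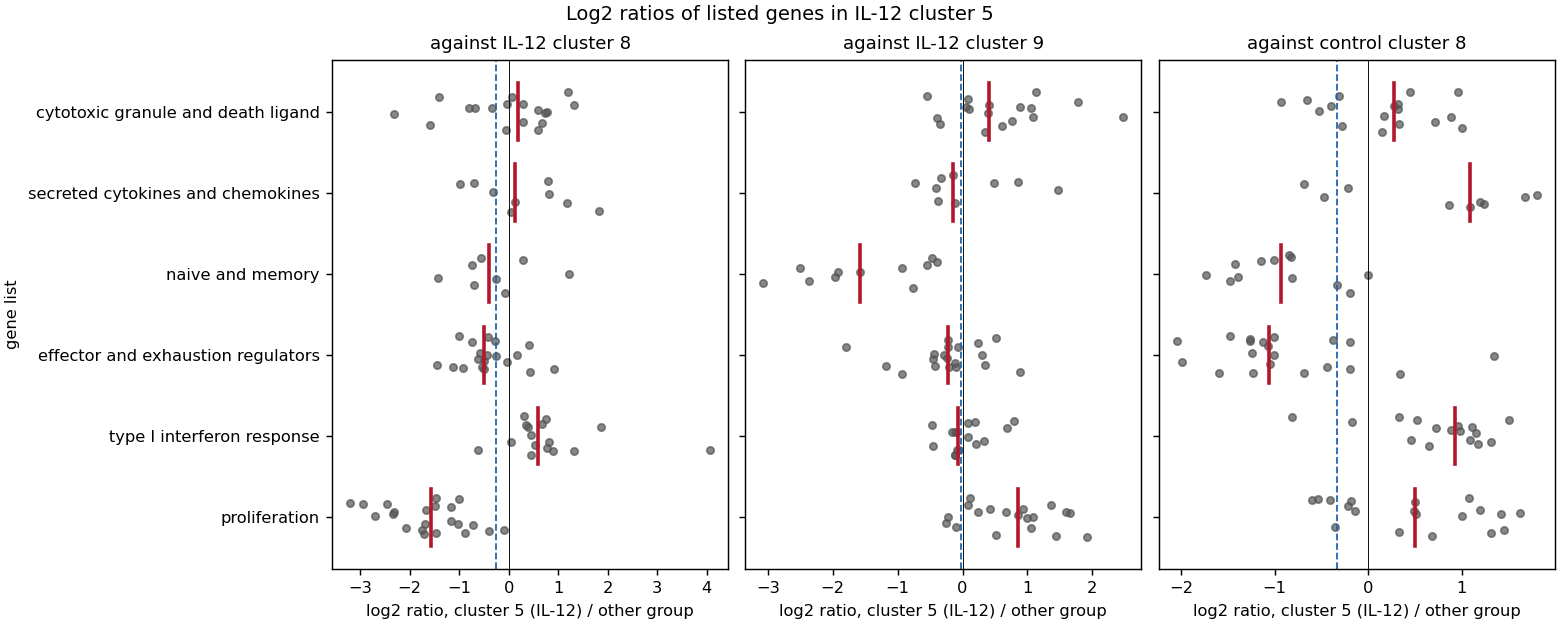
Log2 ratio of each measured gene (points) of 6 gene lists between IL-12 cluster 5 and IL-12 cluster 8, IL-12 cluster 9 and control cluster 8 (panels, left to right). Red bars are list medians and dashed lines the median of all measured genes (-0.25, -0.03 and -0.33). The naive and memory list has its lowest median against IL-12 cluster 9, at -1.58, and the proliferation list against IL-12 cluster 8, at -1.57.

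Most CD8-class cells of the control library lay in cluster 8, so the IL-12 members were also set against those 572 cells. This compares 1 library with another as well as a cluster with a cluster, and the causes cannot be told apart. Of 6652 measured genes, 211 were at least 2-fold higher in the IL-12 members, 3.17% of all, and 1242 at least 2-fold lower, 18.7% of all, and the median log2 ratio of all genes was -0.33. With every cell thinned to 1000 UMIs, 160 genes of 2703 measured were past the line upward and 594 downward. Of the secreted cytokines and chemokines, 5 of 9 measured genes were at least 2-fold higher and 0 lower, with a median log2 ratio of 1.09. Ifng was 3.51-fold higher (3.13 to 3.95) and Ccl5 3.20-fold (3.12 to 3.27). Ccl3 and Ccl4, chemokines that attract T cells and myeloid cells, were 2.15-fold (1.86 to 2.50) and 2.29-fold (2.07 to 2.54) higher, and Spp1 2.37-fold (2.25 to 2.49). Of the type I interferon response 6 of 16 measured genes were higher and 0 lower: Ifit3, Isg20, Usp18, Bst2, Rtp4 and Ifi27l2a. Usp18, which restrains interferon signalling, was 3.00-fold higher (2.18 to 4.24). Of the interferon-gamma response 1 of 22 was higher, the immunoproteasome gene Psmb8, and 3 were lower, Irf1, Irgm2 and Cd274. Ly6c2 and Ly6a stood 5.39-fold (4.73 to 6.16) and 3.69-fold (3.42 to 3.98) higher. In the proliferation list 6 of 19 measured genes were higher and 0 lower, with a median log2 ratio of 0.50. None of the 17 measured granule genes was past 2-fold, with Gzmb at 1559 against 1140.1 CPM. Nkg7 lay at the line, 2.0-fold (1.95 to 2.05), and was below it without the largest clone, at a log2 ratio of 0.88.

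Lower in the IL-12 members than in control cluster 8 were 13 of 20 effector and exhaustion regulators, with a median log2 ratio of -1.06, and 1 was higher. Of all measured genes 18.7% were at least 2-fold lower and 3.17% at least 2-fold higher, with a median of -0.33. Nr4a3, a transcription factor induced by receptor signalling, stood at 83.4 against 348 CPM, 4.17-fold lower (3.86 to 4.51), and Rbpj, the nuclear partner of Notch, at 77.5 against 309.8. Ikzf2 stood at 150.1 against 457, Runx3, a factor of the CD8 lineage, at 207 against 581, and Bhlhe40, a factor induced by activation, at 303 against 719. Batf, which pairs with interferon regulatory factors, was the exception, at 96.7 against 37.2, 2.6-fold higher (2.16 to 3.14). Tox, a factor of exhausted cells, stood at 52.7 against 85.9 CPM. In the naive and memory list 6 of 12 were lower: Tcf7, S1pr1, Satb1, Bcl2, Foxo1 and Myb. Of the IL-12, IL-18 and IL-2 list 5 of 15 were lower, against the 18.7% of all genes, and 0 higher. Cish and Socs3, feedback inhibitors of cytokine signalling, stood at 44.9 against 118 and 34.3 against 72.6 CPM.

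At both ends of this comparison stood genes whose counts are uncertain or that mark other cells. The highest ratios were those of Gpx4, H2-Bl, Mcpt2, Zbed5, H2ac6, Hist1h2ap, Ly6c2, Ilk, Gstp2 and S100a11. Of their 60-base stretches in the annotated transcripts, 32.7% for Gpx4, 92.9% for Hist1h2ap, 52.4% for Gstp2 and 39.8% for S100a11 also occur in another gene, so their counts are uncertain. For Ifng the share was 18.5%. Among the lowest were the neutrophil-type genes Retnlg, Stfa2, Wfdc21, Cstdc5, Cstdc6 and Hdc, with Tnfsf8, Sema6d, Xist and Atp8b2. The 8 neutrophil markers summed to 375 CPM in the IL-12 members, 641 and 889 in IL-12 clusters 8 and 9, and 988, 1624 and 2689 in control clusters 5, 8 and 9. S100a8 had a UMI in 44.6% of the IL-12 members and in 94.9% of control cluster 8. In the IL-12 members 3 of the 8 neutrophil markers were in at least 5% of cells and none was at 0. The 8 macrophage markers summed to 541 CPM in the IL-12 members and 329 in control cluster 8. The part of these transcripts in the differences between libraries was not tested.

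The 13 control members gave 126498 UMIs in all, and their values are rough. Of the 7 markers, Ifng was 5.15-fold higher (2.61 to 11.9) in the IL-12 members, from 8 UMIs in the control, and Nkg7 2.05-fold (1.81 to 2.33). The log2 ratio of Nkg7, 1.04, was 0.61 when cells were thinned and 0.73 in cells with a Cd8a or Cd8b1 UMI, and that of Gzmf went from -1.08 to -0.62 when thinned. Cd8a stood at 977 against 727 CPM and Pdcd1 at 804 against 529.7. Gzmf was lower in the IL-12 members, 415 against 877, as was Gzma, 763 against 1984. Over all 7039 measured genes 13.6% were at least 2-fold higher and 16.3% at least 2-fold lower. Markers of other cells were present: 6 of the 13 cells had 3 or more of the neutrophil markers, against 7.19% of the IL-12 members, and 1 had 3 or more of the B cell markers. Macrophage markers went the other way, in 16.6% of the IL-12 members against 1 of the 13, and NK markers in 2.49% against 0 of 13.

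The authors' scores per cell were given for 2209 of the IL-12 members. Their exhaustion score averaged 0.02 (SD over cells 0.18) in IL-12 cluster 5, -0.04 (0.22) in IL-12 cluster 9 and 0.01 (0.18) in control cluster 8. The activation score was -0.19, -0.07 and -0.21 in the same groups, and the CXCR3 score -0.01, 0.16 and -0.00. The CXCR3 score was thus higher in cluster 9 than in cluster 5 of the same library, in the direction of Cxcr3 itself. The phase calls put 1104 of these 2209 cells in S (47.9 to 52.1%) and 34.0% in G2M, against 33.5% and 36.3% of control cluster 8. Mki67 was detected in 10.7% of the IL-12 members, so the phase calls are not read here as shares of cycling cells.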

How the data were processed

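Single-cell 5′ expression and receptor libraries were made from 1 pool of sorted CD45+ cells per treatment, each from 3 mice. Cell Ranger 2.1.0, STAR 2.6.1, Partek and the genome mm10 are named in the submitters' processing notes. The deposited expression tables hold log2 values of UMIs per 1000000 of a cell (CPM) plus 1, for 11407 genes, with the authors' clusters, classes and clone numbers. The authors' receptor table holds per-cell scores with no account of how they were made. All 3793 of its cells were found in the expression tables.

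UMIs were recovered by undoing the logarithm and dividing by a cell's smallest value. In the IL-12 library 13 of 13883686 values, and in the control library 6 of 4251108, were more than 0.1 from a whole number. Levels are summed UMIs over all UMIs of a group, per 1000000. Log2 ratios add 1 CPM. A gene counted as measured with 50 UMIs over both groups and a UMI in 5% of cells of either, and a fold of 2 set the line. Intervals are at 95%. The ratio and interval code was tested on simulated data, drawn as independent Poisson counts. That test does not cover genes whose UMIs lie in few cells. Doublets were not called here, and cells with genes of other types were kept. Genes named are the 7 markers, the 10 highest and 10 lowest ratios of each comparison, members of fixed lists and the 3 leading genes of the 6 largest clones. One gene that these rules name is not reported here. Members and lists were chosen with earlier results of these data known. The split of the cluster by clone size and the comparison within the 4 largest clones, with the genes shown there, were chosen after values were seen. The code ran on Python 3.11.15 with numpy 2.4.6, pandas 2.3.3 and scipy 1.17.1.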

Additional observations from a re-analysis of the deposited data

How the results depend on the processing

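No paired analysis was possible because each treatment has 1 library and no result comes from a test. Of 68 values of the main results under the alternatives, 40 stayed within their limits and 28 moved, and of 266 marker ratios 195 stayed, 71 moved and 0 past 2-fold changed sign. The share of the CD8 class in cluster 5 was 70.0% over clusters 5, 8 and 9 and 97.2% without cluster 12. With a pseudocount of 10, genes past 2-fold numbered 240 higher and 534 lower than IL-12 cluster 8, 20 and 69 against cluster 9, and 94 and 466 against control cluster 8. With all genes of 1 UMI or more they numbered 1416 and 2137, 222 and 471, and 331 higher. Thinned to 1000 UMIs per cell, with 2654, 2237 and 2703 genes measured, they numbered 274 and 732, 18 and 63, and 594 lower. In cells without neutrophil or macrophage UMIs, 847 were higher than cluster 8 and 155 than cluster 9, and with a recorded clone 1075 and 151. The first of these could not be run against the control groups, which had 0 such cells left. The largest clone held 25.6% among clones of 2 or more cells and 30.0% by beta chain, a grouping chosen after seeing the data. The share in clones also in cluster 9 was 84.8% with a Cd8a or Cd8b1 UMI, 91.3% among clones of 2 or more, 76.5% without the largest clone and 86.5% by beta chain. Below 2-fold, Ifng and Pdcd1 against IL-12 cluster 8 turned to -0.72 and -0.27 (log2) in cells without those UMIs, 13 of them in cluster 8, and Gzmb against control cluster 5 to 0.02 when thinned. The cause was not tested. Clones from the receptor table were not run, since that table as used here has no clone numbers. IL-12 cluster 8 and the control members rest on 62 and 13 cells.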

Other observations

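Identical receptor chains occurred in both libraries. Of 533 distinct CDR3 chains in the IL-12 members, 19 were also among the 282 of the control library, 12 alpha and 7 beta, in 51 members.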
